A study of Mus musculus with 8 samples.

Results

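Colonic mRNA of 9 genes that code for mediators and receptors of visceral pain was examined in bone marrow chimeric mice. The genes were Gdnf, Nrtn, F2rl1, Ptgs2, Bdkrb2, Trpv4, Faah, Mgll and Cnr1. They were listed by name, with earlier results of these data known, and are 9 of the 26008 genes in the table of normalized counts. All 9 passed the filter on low values, a mean of at least 10 normalized counts, the limit below which genes were not tested.

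The recipients were male C57BL/6JRj wild-type mice, lethally irradiated and grafted at 7 weeks of age with bone marrow of Penk-/- or Penk+/+ donors, and colonic biopsies were taken 18 to 21 weeks later. Each genotype had 4 mice, with 1 library a mouse, sequenced as stranded, paired-end poly-A libraries. Penk-/- donors carry a deletion of the gene for proenkephalin, the precursor of the enkephalin opioid peptides, and Penk+/+ donors were their wild-type littermates. Both groups share irradiation and grafting. The model limits the deletion to cells derived from the graft, so that epithelium, smooth muscle, enteric neurons and the sensory nerves of the colon were wild type in every mouse. Nothing shows that replicates with the same number in both genotypes came from related mice.

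Visceral pain is carried by sensory neurons whose cell bodies lie outside the gut, in dorsal root ganglia, and whose endings reach the colonic wall. Mediators released in the tissue act on these endings. Proteases cleave and activate the receptor PAR2, bradykinin acts on the B2 receptor, prostaglandins made by cyclooxygenases lower the threshold of the endings, and neurotrophic factors of the GDNF family sustain sensory and enteric neurons. Endocannabinoids have the opposite action and dampen nociception through the CB1 receptor until the hydrolases FAAH and monoacylglycerol lipase degrade them. A biopsy contains the endings but not the cell bodies of these sensory neurons, and mRNA kept in the cell bodies is not sampled.

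The deletion and the cell content of the biopsies were checked first. Penk had 528 ± 67.5 normalized counts in Penk-/- mice against 541 ± 73.2 in Penk+/+ mice (SD, n = 4 each), so that Penk mRNA of whole colon did not separate the donor genotypes. The part of wild-type recipient cells in these counts was not tested. In the authors' own checks, bone marrow of chimeras was mostly of donor origin, and sorted splenic CD4+ T cells of Penk-/- chimeras had less Penk mRNA. The libraries held 33.1 M to 50.7 M reads counted on genes. Of 6 epithelial markers, 6 were above 0 in all libraries, with sums of 277421 to 382486 in Penk-/- mice against 351012 to 411715 in Penk+/+ mice. The corresponding sums of 6 smooth muscle markers were 142687 to 244816 and 150823 to 234970. Penk-/- replicate 3 and Penk+/+ replicate 4 stood apart by Pbsn, a gene of the prostate, with 105658 and 111024 normalized counts against 0 to 13425 in the other libraries.

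As described further on, Mgll, Ptgs2 and Bdkrb2 were called in a fit on the tissue composition of the biopsies. These calls depended on single libraries. Gdnf was not called there, though it correlated with Bdkrb2 (r = 0.912) more closely than Mgll did (r = 0.864). The bases just before the annotated starts of the 3 called genes are given here. They are the 250 bases upstream of the annotated start of Mgll (chr6:88701144-88701393, plus strand), Ptgs2 (chr1:149975238-149975487, plus strand) and Bdkrb2 (chr12:105529133-105529382, plus strand), read 5′ to 3′ on the strand of the gene from the GRCm39 genome at the start of the Ensembl canonical transcript in GENCODE M39. For Mgll and Ptgs2 this start lies within the outer bounds of the gene given further on. Capitals mark matches to the 10 short motifs that were searched on both strands, which were the TATA box written as TATAAA, the box CCAAT, the GC box written as GGGCGG, the AP-1 site written as TGANTCA, the cAMP response element written as TGACGTCA, the core of that element written as TGACG, the E-box written as CACGTG, the GATA site written as AGATAA, the CArG box and the NF-kB motif. The core TGACG is part of the whole element, and the other matches in these 3 sequences do not overlap.
Mgll: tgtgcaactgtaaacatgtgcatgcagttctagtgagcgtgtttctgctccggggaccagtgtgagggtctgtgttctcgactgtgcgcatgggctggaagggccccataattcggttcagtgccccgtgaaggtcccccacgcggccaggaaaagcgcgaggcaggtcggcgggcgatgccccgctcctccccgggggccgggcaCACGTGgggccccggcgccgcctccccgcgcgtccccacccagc
Ptgs2: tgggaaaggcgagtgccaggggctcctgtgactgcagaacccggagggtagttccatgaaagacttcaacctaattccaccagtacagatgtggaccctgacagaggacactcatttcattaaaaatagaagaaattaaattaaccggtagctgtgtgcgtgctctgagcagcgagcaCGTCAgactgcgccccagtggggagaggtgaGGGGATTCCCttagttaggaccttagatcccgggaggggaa
Bdkrb2: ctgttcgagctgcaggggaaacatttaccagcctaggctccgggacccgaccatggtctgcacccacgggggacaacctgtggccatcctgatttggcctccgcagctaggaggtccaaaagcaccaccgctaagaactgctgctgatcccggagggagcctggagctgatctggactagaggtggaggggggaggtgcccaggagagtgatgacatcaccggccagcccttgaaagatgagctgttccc

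Among 16860 promoters of protein-coding genes of the table, with the same length, CACGTG was found in 7.06%, TGACG in 20.5% and the NF-kB motif in 2.40%. The Mgll sequence held CACGTG from 44 to 39 bases before the start. The Ptgs2 sequence held TGACG on the opposite strand, from 72 to 68 bases before the start, and the NF-kB motif from 41 to 32 bases before it. The Bdkrb2 sequence held none of the 10 motifs. None of the motifs was shared by these 3 genes. TGACG was also found upstream of Gdnf and Cnr1, whose sequences are not printed. The sequences had 68%, 52.4% and 60.8% of G and C for Mgll, Ptgs2 and Bdkrb2, against a median of 55.6% over all promoters. The numbers of CG dinucleotides were 23, 8 and 8, in the same order, and the median was 10.

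The levels of the 9 genes were compared after division by length, as mean normalized counts per kb of exon over the 8 libraries. F2rl1, the PAR2 gene, had by far the highest level, with 1733 ± 327 per kb (SD, n = 8). Mgll (205 ± 41.7), Bdkrb2 (158 ± 47.0) and Faah (113 ± 6.02) followed, then Ptgs2 (74.6 ± 23.7). The lowest levels per kb were those of Gdnf (28.8 ± 8.03), Cnr1 (27.96 ± 4.42), Trpv4 (16.1 ± 4.50) and Nrtn (10.7 ± 5.38). F2rl1 exceeded Mgll in 8 of 8 libraries, by 3.08 ± 0.56 on the log2 scale. Of the 8 pairs of neighbours in this order, 3 did not differ beyond their spread over the libraries. These were Bdkrb2 and Faah (exact permutation test, two-sided, p = 0.0703), Gdnf and Cnr1 (exact permutation test, p = 0.945), and Trpv4 and Nrtn (exact permutation test, p = 0.0781). In each other pair the higher gene was higher in 8 of 8 libraries (exact permutation test, p = 0.00781, the smallest that 8 libraries allow, 0.0125 after Benjamini-Hochberg adjustment over the 8 pairs). Lengths are those of all annotated exons, and levels per kb therefore depend on the isoforms a tissue uses. Faah (11054 exon bases) and Mgll (6180 exon bases) had similar mean normalized counts, 1246 and 1266, so that their difference per kb comes mostly from length. The order was taken from the same 8 libraries in which neighbours were tested. These p-values measure the spread over the libraries and not an error in length.

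**Figure D1:**
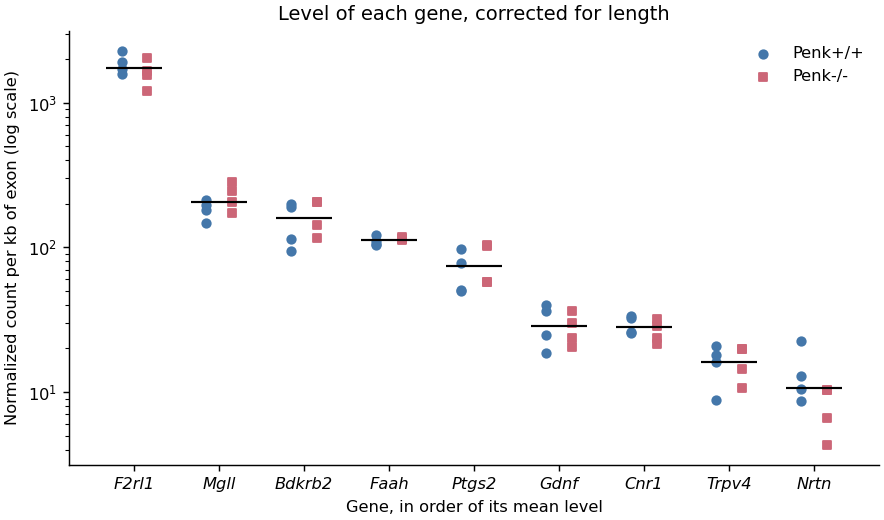
Normalized count per kb of exon of each gene on a log scale, in order of the mean level (black lines), with 1 point per mouse (circles, Penk+/+; squares, Penk-/-). F2rl1 lies above all other genes in each library, with a mean of 1733 per kb, and Nrtn is lowest with 10.7 per kb.

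The question of the comparison between donor genotypes was whether loss of proenkephalin in haematopoietic cells is accompanied by a change in the colonic expression of pain mediators. None of the 9 genes was called different. At an adjusted p below 0.05 with limma, 0 of 9 passed, and the background was 0% of all 19127 genes tested. Adjusted p ranged from 0.597 to 0.979 with limma. At an unadjusted p below 0.05, 0 of 9 genes passed, whereas 9.63% of all genes did. The groups overlapped for all 9 genes, while they did not for 5.63% of all genes tested (2.89% higher and 2.74% lower in Penk-/- chimeras). A total of 5 genes were above and 4 below 0 in log2 fold change, with a median of 0.04 against 0.01 over all genes tested. The median size of the log2 fold change without its sign was 0.19 for the 9 genes and 0.12 for all genes tested. The count tests were run on 7 libraries. Replicate 1 of the Penk-/- chimeras was left out because its reads were not accepted as recovered, although all its values were whole numbers of steps, as described under processing. The count tests also called 0 of the 9 genes, though DESeq2 gave no adjusted p for Nrtn. Over all genes, edgeR called 5 and DESeq2 called 367 at an adjusted p below 0.05. In these 7 libraries, without replicate 1 of the Penk-/- chimeras, 2 of the 9 genes had an unadjusted p below 0.05, Mgll and F2rl1, with 0.0224 and 0.0481 with limma (adjusted 0.365 and 0.426). These were 0.0229 and 0.0460 with edgeR (adjusted 0.361 and 0.415), and 0.00981 and 0.0297 with DESeq2 (adjusted 0.160 and 0.272). Over all genes, an unadjusted p below 0.05 was also more frequent in these 7 libraries. It was found for 2223 genes with limma, 2264 with edgeR and 2331 with DESeq2, against 1842 with limma in all 8 libraries. In a bulk sample, fewer cells of a type and less RNA per cell cannot be told apart.

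**Figure D2:**
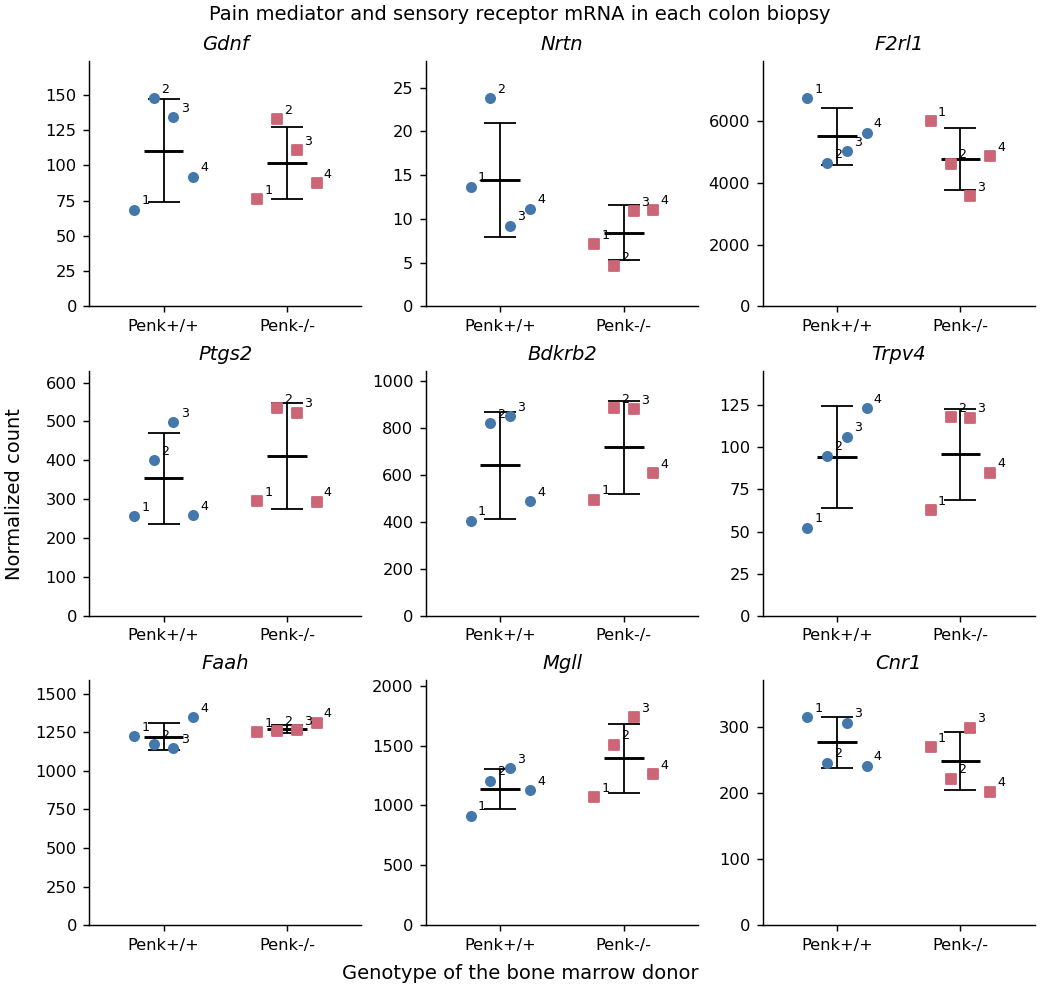
Normalized counts of the 9 genes in each biopsy by donor genotype, with the replicate number beside each point; horizontal lines are means and bars are SD (n = 4). The genotypes overlap in all 9 panels, and replicate 1 is lowest within its genotype for Gdnf, Bdkrb2, Trpv4 and Mgll in both.

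**Figure D3:**
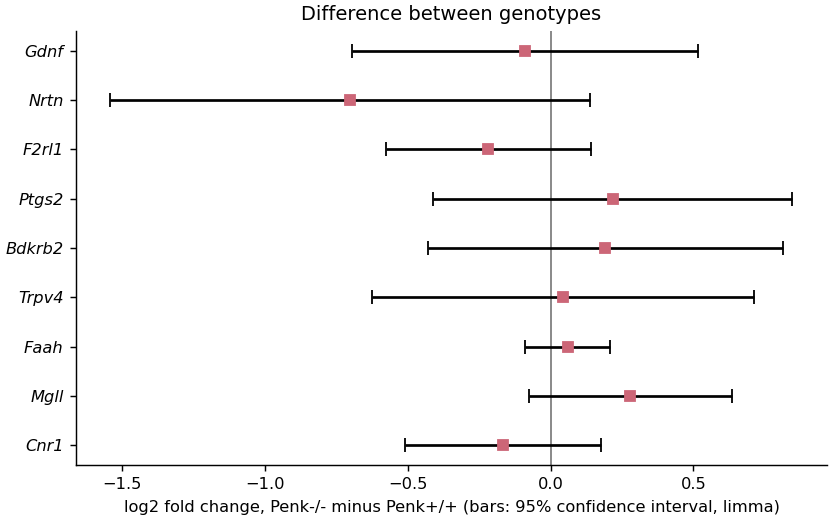
Log2 fold change of each gene, Penk-/- minus Penk+/+, with its 95% confidence interval from limma. Each interval includes 0; that of Faah is the narrowest, from -0.09 to 0.21, and that of Nrtn the widest, from -1.54 to 0.14.

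The neurotrophic ligands were examined first. Gdnf (ENSMUSG00000022144, chromosome 15 of GRCm39, 7840327 to 7867060) codes for glial cell line-derived neurotrophic factor, a ligand of RET that enteric neurons need for their development. In replicates 1 to 4, Gdnf had 75.7, 133, 110 and 87.3 normalized counts in Penk-/- mice against 68.5, 147, 134 and 91.7 in Penk+/+ mice. Replicates 2 and 3 were the highest in both genotypes, and the ranges coincided almost entirely. The mean was 102 ± 25.3 in Penk-/- mice against 110 ± 36.6 in Penk+/+ mice (SD, n = 4), a log2 fold change of -0.09 (95% interval -0.69 to 0.52, adjusted p = 0.947 with limma).

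Nrtn (ENSMUSG00000039481, chromosome 17, 57058324 to 57064569) codes for neurturin, another ligand of the same family that acts through GFRA2. Nrtn had 7.07, 4.58, 10.9 and 11.0 normalized counts in Penk-/- mice against 13.7, 23.8, 9.20 and 11.1 in Penk+/+ mice. The highest values were both in Penk+/+ chimeras, replicates 2 and 1, and the lowest both in Penk-/- chimeras, while the other four libraries lay between 9.20 and 11.1. Nrtn had the lowest counts of the 9 genes, with 4 to 25 reads in the 7 libraries with recovered reads, and counting error therefore adds to the spread between mice. Its log2 fold change of -0.70 was the largest of the 9 genes (standard error 0.37, 95% interval -1.54 to 0.14, unadjusted p = 0.0920, adjusted p = 0.597 with limma). The exact permutation test gave p = 0.114 (two-sided, n = 4 each), where the smallest possible value is 0.0286.

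The receptors for proteases, kinins and physical stimuli did not differ between the genotypes beyond the spread between mice. F2rl1 (ENSMUSG00000021678, chromosome 13, 95648221 to 95661800) codes for PAR2, a receptor that trypsin and tryptase activate by cleavage and that is abundant in intestinal epithelium. F2rl1 had 6010.2, 4633, 3581 and 4876 normalized counts in Penk-/- mice against 6746, 4641, 5033 and 5640.3 in Penk+/+ mice. The lowest library was Penk-/- replicate 3 and the highest was Penk+/+ replicate 1, and the genotypes overlapped from 4641 to 6010.2. The means were 4775 ± 997 and 5515 ± 918 (SD, n = 4), with a log2 fold change of -0.22 (95% interval -0.58 to 0.14, adjusted p = 0.705 with limma).

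Bdkrb2 (ENSMUSG00000021070, chromosome 12, 105529383 to 105561503) codes for the bradykinin B2 receptor, which is constitutively expressed and excites nociceptors and contracts gut smooth muscle. Bdkrb2 had 493, 884, 879 and 607 normalized counts in Penk-/- mice against 403, 818, 849 and 486 in Penk+/+ mice. In both genotypes replicates 2 and 3 were high and replicates 1 and 4 were low, so that the spread within a genotype exceeded the difference between them. The log2 fold change was 0.19 (95% interval -0.43 to 0.81, adjusted p = 0.871 with limma).

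Trpv4 (ENSMUSG00000014158, chromosome 5, 114760209 to 114796914) codes for a cation channel opened by osmotic and mechanical stimuli and found on colonic afferents, epithelium and endothelium. Trpv4 had 62.6, 118, 118 and 85.1 normalized counts in Penk-/- mice against 52.3, 95.1, 106 and 123 in Penk+/+ mice. Replicate 1 was the lowest of each genotype, and the means of 95.8 ± 27.0 and 94.3 ± 30.3 (SD, n = 4) differed by a log2 fold change of 0.04 (95% interval -0.62 to 0.71, adjusted p = 0.979 with limma). Both libraries with the most Pbsn were high in Trpv4, with a mean of 121 against 86.5 in the other six. Penk-/- replicate 2 was as high in Trpv4 with only 7638 normalized counts of Pbsn, and r of Trpv4 with log2 Pbsn was 0.305. The part of the accessory gland tissue in the Trpv4 values was not tested.

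Ptgs2 (ENSMUSG00000032487, chromosome 1, 149975194 to 149983978) codes for cyclooxygenase-2, the inducible enzyme of prostaglandin synthesis. Ptgs2 had 295, 535, 523 and 293 normalized counts in Penk-/- mice against 256, 400.3, 498 and 258 in Penk+/+ mice. As for Bdkrb2, replicates 2 and 3 of both genotypes were above replicates 1 and 4. The means were 411 ± 136 and 353 ± 118 (SD, n = 4), a log2 fold change of 0.22 (95% interval -0.41 to 0.85, adjusted p = 0.851 with limma). Of the 5123 exon bases of Ptgs2, 476 are shared with Ptgs2os on the opposite strand, and the strand setting of the counting is not stated.

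The endocannabinoid genes had the least spread between mice among the 9 genes, apart from Mgll. Faah (ENSMUSG00000034171, chromosome 4, 115824342 to 115875423) codes for fatty acid amide hydrolase, which degrades anandamide. Faah had 1249, 1260.4, 1264 and 1310.4 normalized counts in Penk-/- mice against 1223, 1171, 1145 and 1346 in Penk+/+ mice. These 8 values had a coefficient of variation of 5.34%, against 15.8% to 50.04% for the other genes. The log2 fold change was 0.06 (adjusted p = 0.819 with limma), and its 95% interval of -0.09 to 0.21 corresponds to 0.941-fold to 1.16-fold, the tightest limit among the 9 genes.

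Mgll (ENSMUSG00000033174, chromosome 6, 88652108 to 88805342) codes for monoacylglycerol lipase, which degrades the endocannabinoid 2-arachidonoylglycerol. Mgll had 1070.4, 1507, 1735 and 1262 normalized counts in Penk-/- mice against 914, 1205, 1312 and 1126 in Penk+/+ mice. Replicates 2 and 3 of the Penk-/- chimeras were above all other libraries, but replicate 1 of the Penk-/- chimeras lay below 3 of the 4 Penk+/+ chimeras. The means were 1393 ± 289 and 1139 ± 169 (SD, n = 4), a log2 fold change of 0.28 (standard error 0.16, 95% interval -0.08 to 0.63, unadjusted p = 0.109, adjusted p = 0.626 with limma). Of its 6180 exon bases, 496 are shared with Gm26588 on the opposite strand.

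Cnr1 (ENSMUSG00000044288, chromosome 4, 33922982 to 33948836) codes for the CB1 receptor, which in the gut is found mainly on enteric neurons and restrains transmitter release. Cnr1 had 270, 222, 299 and 202 normalized counts in Penk-/- mice against 315, 246, 307 and 242 in Penk+/+ mice. Replicates 1 and 3 of both genotypes were above replicates 2 and 4, a different order from that of Ptgs2 and Bdkrb2. The means were 248 ± 44.3 and 277 ± 38.7 (SD, n = 4), with a log2 fold change of -0.17 (95% interval -0.51 to 0.18, adjusted p = 0.775 with limma). Of 9400 exon bases of Cnr1, 203 are shared with Gm33105 on the opposite strand. No other of the 9 genes shares exon bases with an annotated gene.

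The variation between mice was then set against the tissue composition of the biopsies. A balance of tissue layers was computed for each library as the mean log2 level of 6 smooth muscle markers (Myh11, Acta2, Actg2, Des, Tagln and Cnn1) minus that of 6 epithelial markers (Epcam, Cdh1, Krt8, Krt20, Vil1 and Car1), each marker centred over the 8 libraries. In replicates 1 to 4 the balance was -0.53, 0.47, 0.57 and -0.02 in Penk-/- mice against -0.43, -0.18, 0.34 and -0.22 in Penk+/+ mice. Genotype means were 0.25 apart (exact permutation test, two-sided, p = 0.429, n = 4 each), less than the spread between mice of a genotype.

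A total of 3 of the 9 genes, Mgll, Ptgs2 and Bdkrb2, rose with the smooth muscle side of this balance in a fit of all genes (adjusted p = 0.0236, 0.0347 and 0.0411 with limma). The background was 3.32% of the 19115 genes that are not markers of the balance, of which 1.46% were higher and 1.86% lower with smooth muscle. Mgll had the closest relation, with r = 0.925 (permutation test over all pairings, p = 0.000471) and rho = 0.976 (permutation p = 0.000397). For Ptgs2 r was 0.877 (permutation p = 0.00940) and rho 0.786 (permutation p = 0.0279), and for Bdkrb2 r was 0.848 (permutation p = 0.0163) and rho 0.881 (permutation p = 0.00724). For each doubling of smooth muscle relative to epithelial markers, Mgll rose by 0.64, Ptgs2 by 0.97 and Bdkrb2 by 0.93 on the log2 scale.

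F2rl1 had the opposite sign, with r = -0.823 (permutation p = 0.00918) and rho = -0.881 (permutation p = 0.00724), and it missed the threshold over all genes (slope -0.55, adjusted p = 0.0520 with limma). Trpv4 (r = 0.743, rho = 0.571) and Gdnf (r = 0.663, rho = 0.595) had positive values that did not pass (adjusted p = 0.122 and 0.196 with limma). Their permutation p for r was 0.0363 and 0.0844, and for rho 0.151 and 0.132. Nrtn (r = -0.345, rho = -0.333), Faah (r = -0.0962, rho = 0.0952) and Cnr1 (r = -0.0214, rho = -0.167) showed no detectable relation with the balance, with permutation p between 0.418 and 0.959 for r and between 0.428 and 0.840 for rho, and adjusted p of 0.622, 0.930 and 0.981 with limma. Of the 9 relations, 5 had an unadjusted permutation p for r below 0.05. The share of all genes with such a permutation p was not computed, so that this count has no background.

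The calls depended on single libraries. Without replicates 2 and 3 of the Penk-/- chimeras, the libraries farthest from the median of the balance, r was 0.820 for Mgll, 0.740 for Ptgs2, 0.765 for Bdkrb2 and -0.670 for F2rl1. The call for Mgll was lost without Penk-/- replicate 1, 2 or 3 or Penk+/+ replicate 1 (adjusted p up to 0.112 with limma). That for Ptgs2 was lost in 6 and that for Bdkrb2 in 7 of the 8 fits that left out a single library, though r stayed between 0.817 and 0.958 for these genes. Ptgs2 kept its call only without replicate 2 or replicate 4, and Bdkrb2 only without replicate 2, of the Penk+/+ chimeras. F2rl1 gained a call without replicate 2 or replicate 3 of the Penk+/+ chimeras (adjusted p = 0.0337 and 0.0470 with limma). Without both libraries with the most Pbsn, 0 of the 9 genes were called, with r = 0.895 for Mgll, 0.867 for Ptgs2 and 0.831 for Bdkrb2. With genotype as a further term, 1 gene was called, Mgll. When the balance was entered as a covariate in the genotype comparison, the log2 fold change of Mgll was 0.14 in place of 0.28 and that of F2rl1 -0.09 in place of -0.22, and 0 of the 9 genes were called. Fibroblast, endothelial and macrophage marker scores were also low in replicate 1 of both genotypes, from -0.60 to -0.26, and their part in these relations was not tested.

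**Figure D4:**
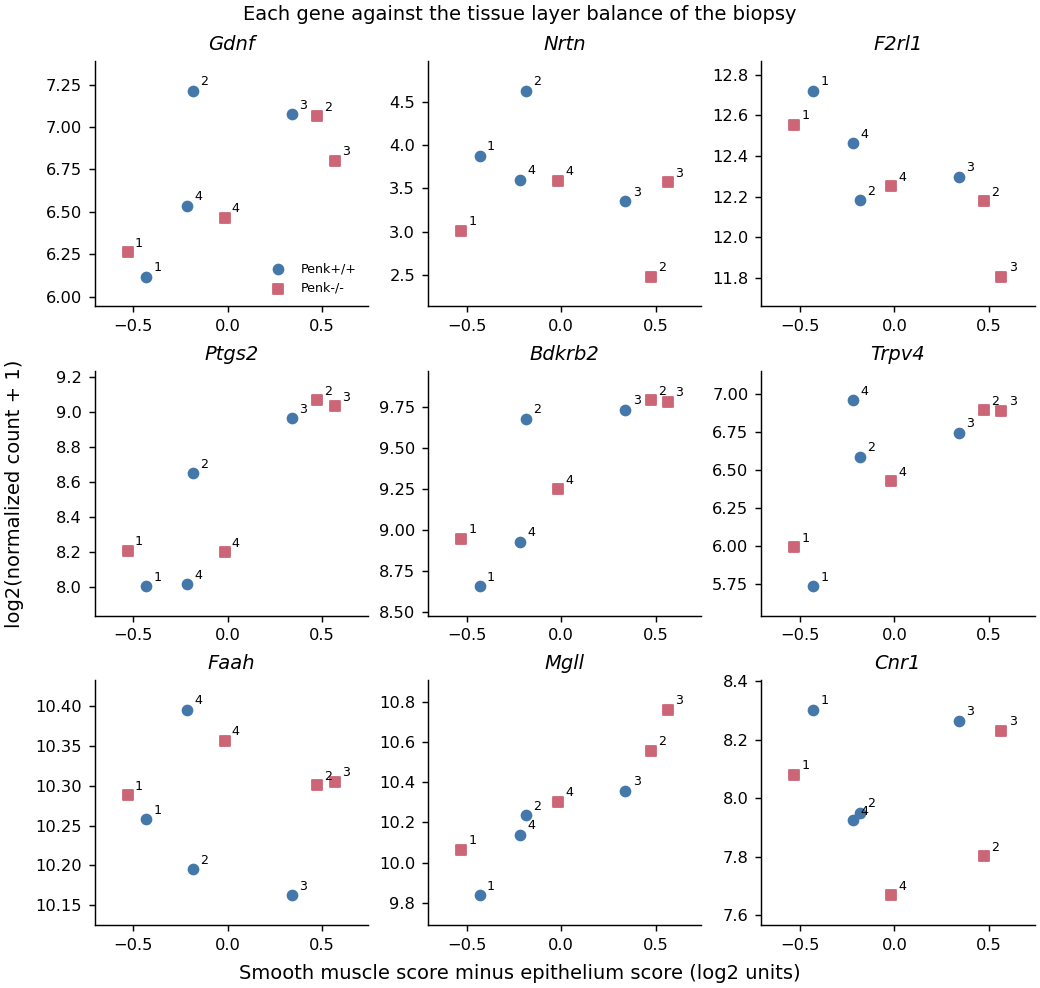
Log2(normalized count + 1) of each gene against the balance (smooth muscle score less epithelium score) of the same biopsy, with the replicate number beside each point (circles, Penk+/+; squares, Penk-/-). Mgll rises almost steadily along the balance (r = 0.925), F2rl1 falls (r = -0.823), and r is -0.0962 for Faah and -0.0214 for Cnr1.

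Among the 9 genes themselves, as a description over 8 libraries that share tissue composition and depth, Ptgs2 and Bdkrb2 had the highest positive correlation (r = 0.947), followed by Gdnf and Bdkrb2 (r = 0.912). The most negative was that of F2rl1 and Mgll (r = -0.947). Over all genes tested, the gene most like each of the 9 in log2 level over the 8 libraries was Sdc2 for Bdkrb2 (r = 0.993), Art3 for Mgll (r = 0.991), Mtm1 for F2rl1 (r = 0.990), Mfsd12 for Faah (r = 0.985), Zfpm2 for Ptgs2 (r = 0.980), Zfp934 for Gdnf (r = 0.976), Clec11a for Trpv4 (r = 0.973), Gdap1 for Cnr1 (r = 0.945) and Lingo1 for Nrtn (r = 0.941). The next were Pitpnc1 and Gask1b for Bdkrb2, Osmr and Ccn2 for Mgll, Heph and 2810459M11Rik for F2rl1, Gnl1 and Tnpo2 for Faah, and Flt4 and Ncl for Ptgs2. For Gdnf they were Mir100hg and Emilin1, for Trpv4 Tars2 and Gpr146, for Cnr1 Vps33a and Gm13192, and for Nrtn AI463229 and Tafa1. These genes were picked as the highest among 19127, so that the values are a description with no test.

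The other genes of the same pathways were examined through 7 lists with 98 genes, the 9 genes included. Of these, 96 were in the table, 89 were tested and 0 were called, with limma, at an adjusted p below 0.05. An unadjusted p below 0.05 was found for 7 genes (7.87%, against 9.63% of all genes), and groups that do not overlap for 3 genes (3.37%, against 5.63%). The median log2 fold change of the 89 genes was -0.03. Kng1 and Trpm8 were not analysed here.

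Of the GDNF family and neurotrophin ligands, 7 were tested, with 3 above and 4 below 0. Bdnf, which codes for brain-derived neurotrophic factor, had 34.5 ± 11.4 normalized counts in Penk-/- mice against 19.9 ± 3.88 in Penk+/+ mice (log2 fold change 0.71, unadjusted p = 0.0428, adjusted p = 0.501 with limma). Replicate 1 of the Penk-/- chimeras, with 18.2 normalized counts of Bdnf, lay within the Penk+/+ range of 14.3 to 22.5. Artn, coding for the GDNF family ligand artemin, had 51.2 ± 5.05 against 65.7 ± 25.6 (adjusted p = 0.798 with limma). Of the 10 receptors tested, 4 were above and 6 below 0, with Gfra1, the co-receptor for GDNF, at -0.18 (adjusted p = 0.670 with limma) and Sort1, coding for sortilin, at -0.12 (adjusted p = 0.744 with limma).

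In the list of protease-activated and kinin receptors and kinin supply, 10 genes were tested, 5 above and 5 below 0. The smallest unadjusted p were those of Cpm, coding for a carboxypeptidase that trims kinins (log2 fold change -0.19, adjusted p by limma 0.638), and F2rl3, coding for PAR4 (0.36, adjusted p = 0.647 with limma). Bdkrb1, coding for the inducible B1 receptor, had 16.3 ± 7.53 normalized counts in Penk-/- mice against 10.0 ± 4.63 in Penk+/+ mice (mean and SD), against means of 715 and 639 for Bdkrb2. The genotypes overlapped for Bdkrb1 at these low counts (log2 fold change 0.67, unadjusted p = 0.195, adjusted p = 0.698 with limma).

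Of 18 prostaglandin genes tested, 12 were above and 6 below 0, with a median of 0.07. Hpgds, which codes for the haematopoietic prostaglandin D synthase, had 768, 863, 756 and 894 normalized counts in Penk-/- mice against 1303, 1206, 1144 and 825 in Penk+/+ mice. The genotypes overlapped, as replicate 4 of the Penk+/+ chimeras lay within the Penk-/- range. The log2 fold change was -0.43 (unadjusted p = 0.0107, adjusted p = 0.400 with limma), and the exact permutation test gave p = 0.0857 (two-sided). Both libraries with the most Pbsn had a mean of 790 for Hpgds against 1030 in the others, and the part of accessory gland tissue was not tested. Ptges3, coding for p23, a cochaperone with prostaglandin E synthase activity, had 4429, 4449.8, 4892 and 4399.7 normalized counts in Penk-/- mice against 4039.8, 4192, 4041 and 4346 in Penk+/+ mice. The genotypes did not overlap for Ptges3, but the change was small, with a log2 fold change of 0.13 (adjusted p = 0.515 with limma).

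Of 15 endocannabinoid genes tested, 5 were above and 10 below 0, with a median of -0.10. Gpr55, which codes for a receptor for lysophosphatidylinositol that some cannabinoids also bind, had the smallest p of the 7 lists. Gpr55 had 97.9, 74.4, 78.5 and 98.3 normalized counts in Penk-/- mice against 168, 123, 124 and 160.3 in Penk+/+ mice. Each Penk-/- chimera was below every Penk+/+ chimera, with means of 87.3 ± 12.6 and 144 ± 23.9 (SD, n = 4). The log2 fold change was -0.71 (standard error 0.17, unadjusted p = 0.00183, adjusted p = 0.339 with limma), and DESeq2 on 7 libraries gave -0.78 with an adjusted p of 0.0200. Dagla, coding for a diacylglycerol lipase that makes 2-arachidonoylglycerol, had 1015 ± 68.8 against 896 ± 46.2 normalized counts (log2 fold change 0.18, unadjusted p = 0.0338, adjusted p by limma 0.475), and the genotypes overlapped.

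Of 18 sensory channels tested, 9 were above and 9 below 0. Trpa1, which codes for an irritant-gated channel of nociceptors and enterochromaffin cells, had 87.9, 83.6, 84.3 and 69.6 normalized counts in Penk-/- mice against 63.5, 54.2, 61.3 and 58.3 in Penk+/+ mice. Each Penk-/- chimera was above every Penk+/+ chimera, with a log2 fold change of 0.45 (95% interval 0.12 to 0.77, unadjusted p = 0.0120, adjusted p = 0.406 with limma). Trpv3, a warmth-sensitive channel gene, had 5396 ± 245 against 6463 ± 1104 (log2 fold change -0.25, unadjusted p = 0.0443, adjusted p = 0.504 with limma). Of 11 neuropeptide and neuropeptide receptor genes tested, 3 were above and 8 below 0, and the smallest unadjusted p were those of Gal, coding for galanin (log2 fold change -0.43, adjusted p by limma 0.660), and Tacr3, coding for the neurokinin 3 receptor (-0.38, adjusted p = 0.661 with limma). Mast cells are a source of the tryptase that cleaves PAR2 and of prostaglandin D2, and 4 of 6 mast cell markers were tested, with a median log2 fold change of 1.03. The difference in their score was 0.82 (exact permutation test, two-sided, p = 0.2, n = 4 each), their sums were 2328 to 2904 in Penk-/- mice against 2251 to 3164 in Penk+/+ mice, and Fcer1a and Ms4a2 were at 0 in some libraries. Most of each sum came from Kit, a gene that interstitial cells of Cajal also express, with 2153 to 3124 normalized counts and a log2 fold change of -0.07, against 0.88 for Cpa3, 1.19 for Tpsb2 and 1.29 for Mcpt4 (adjusted p from 0.529 to 0.899 with limma). Cpa3, Tpsb2 and Mcpt4 were low, at 4.75 to 44.3, 4.75 to 39.2 and 0.951 to 45.8 normalized counts. Each was highest, within its genotype, in the library with the most Pbsn (Penk-/- replicate 3 and Penk+/+ replicate 4). In the authors' cytometry of colonic haematopoietic cells, done in other sets of chimeras, mast cells were less frequent with Penk-/- marrow. That is the opposite direction to Cpa3, Tpsb2 and Mcpt4 here, and it counts cells and not mRNA. The part of mast cells in the values of Hpgds was not tested.

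**Figure D5:**
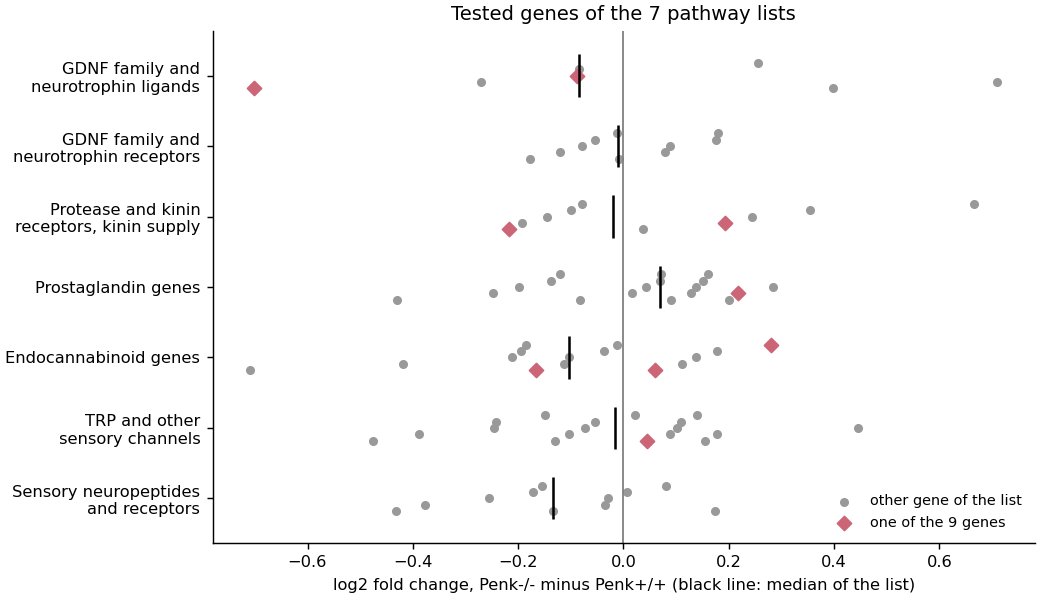
Log2 fold change, Penk-/- minus Penk+/+, of the 89 tested genes in 7 pathway lists, with 1 point per gene, diamonds for the 9 genes and a black line for the median of each list. The list medians lie between -0.13 and 0.07, and Nrtn and Gpr55 are the lowest points, at -0.70 and -0.71.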

How the data were processed

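RNA of colonic biopsies was sequenced in 4 Penk-/- and 4 Penk+/+ chimeras. The authors checked reads with FastQC, used STAR 2.7.8a for alignment to GRCm39 and counting over Ensembl genes, and used DESeq2 1.30.0. The values the authors deposited are normalized counts, a signal equal to the reads of a gene divided by a size factor of the library, and the strand setting of the counting is not given in the sources used here. Identifiers were matched to GENCODE M39 names (25776 of 26008).

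Genotypes were tested in R 4.3.3 by limma 3.58.1 (lmFit, eBayes with trend, two-sided) on log2(value + 1), a scale that understates the change of low genes, over the 19127 genes with a mean of at least 10. Adjustment was by Benjamini-Hochberg over all of these, and the threshold was 0.05. Single genes were also compared by exact permutation over the 70 assignments of 4 of 8 libraries, and neighbours in level by exact sign changes over the 8 libraries. Relations with the tissue layer balance were tested by limma across all genes and by permutation over all pairings, and the adjustment over the 9 genes alone that had been planned for them was replaced by that over all genes. Every value (100%) was a whole number of steps, within 0.01 of a step, in each library. For replicate 1 of the Penk-/- chimeras the step was too close to 1 to be accepted as recovered reads, so that edgeR 4.0.16 (quasi-likelihood) and DESeq2 1.42.0 were run on the other 7 libraries. The fits were tested on simulated data. Sampling noise alone did not account for the difference between any pair of libraries (chi-square over its degrees of freedom at least 11.2); all 8 were used.

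The 9 genes and the pathway and marker lists were chosen with earlier results of these data known. In each pathway list the genes named are those with an unadjusted p under 0.05, or the 2 with the smallest p, at most 4 a list, besides Penk, Pbsn and the 3 genes most like each of the 9. Bdkrb1 was named after its values were seen. Some marker lists and upstream sequences are not reported here. Alternatives were other pseudocounts, filters and scaling, no variance trend, the replicate number as a block, single libraries or both libraries with the most Pbsn left out, and the count tests. The count tests on 7 libraries and the balance as a covariate were added after the data were seen. Permutation tests, sequences and figures were made in Python 3.11.15 (pandas 2.3.3, numpy 2.4.6, matplotlib 3.10.9, scipy 1.17.1). Depth was 33.1 M to 50.7 M reads on genes a library, and p-values measure the spread between these mice.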

Additional observations from a re-analysis of the deposited data

Results flagged for a closer look

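A library lay far from the others of its genotype for 2 of 26 genes examined, Pbsn and Ptges3, by a gap to the nearest library above the tabulated limit of Dixon's test for 4 samples. In replicate 3 of the Penk-/- chimeras Pbsn had 105658 normalized counts, against 0 to 7638 in the other three (gap 0.928 of the range of the group), and 111024 in replicate 4 of the Penk+/+ chimeras, against 0 to 13425 in the other three (gap 0.879). The former library also had 4892 normalized counts of Ptges3, against 4399.7 to 4449.8 in the other three libraries (gap 0.898). A total of 52 groups of 4 libraries were examined, in which chance alone gives about 2.6 such libraries. None of the 9 pain genes had one. Replicate 3 of the Penk-/- chimeras is one of the 2 libraries with the most Pbsn, and the part of accessory gland tissue in its Ptges3 value was not tested.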

How the results depend on the processing

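In none of the 20 alternative settings was a call made between the genotypes for any of the 9 genes, where Nrtn was fitted in only 18 of these and had no adjusted p with DESeq2, and in none of 3 did any reach an exact permutation p of 0.05. The number of genes called over the whole table, 0 with limma, was 1 under quantile normalization, 1 with the replicate block, 1 with the balance as a covariate, 5 and 5 with edgeR (both scalings), 367 with DESeq2 on 7 libraries, and 0 to 6 when single libraries were left out. Nothing in the labels pairs the mice by replicate number. The deviations of same-numbered libraries gave no sign of such a pairing (correlations 0.145, -0.044, -0.321 and -0.162), but these few values cannot exclude it. With the block, 4 of the 9 genes had an unadjusted p below 0.05 (Mgll, F2rl1, Bdkrb2 and Ptgs2), and 2938 genes over the table against 1842 without it. The sign of small fold changes depended on the setting. That of Gdnf ranged from -0.29 to 0.071 when single libraries were left out and was 0.0011 with edgeR and TMM. That of Bdkrb2 ranged from -0.0046 to 0.36 and that of Trpv4 from -0.21 to 0.23. Without the libraries with the most Pbsn, Ptgs2 was at -0.049 and Bdkrb2 at -0.028. With the balance as a covariate, Ptgs2 was at -0.025, Bdkrb2 at -0.041 and Trpv4 at -0.17. Gpr55 was called with DESeq2 only (adjusted p = 0.0200), and over its other settings it was not. The number of genes that followed the balance, 3, was 1 under quantile normalization, 1 with genotype as a term, 0 without the libraries with the most Pbsn and 0 to 4 when single libraries were left out. The correlation with the balance ranged from -0.203 to 0.153 for Faah and from -0.278 to 0.227 for Cnr1 when single libraries were left out, and was 0.114 for Cnr1 within genotypes. The cause of these changes was not tested. edgeR and DESeq2 on all 8 libraries were not run, since reads were accepted as recovered in 7. Depth limits Nrtn most, with 4 to 25 reads a library.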
